A study of Homo sapiens with 6 samples.

Results

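The genes described here were 35 human genes of DNA double-strand break repair and checkpoint signalling. They were chosen by name, from what their proteins are known to do, and their symbols were matched to the Ensembl identifiers of the count lists. All 35 were found among the 67140 genes listed for the etoposide libraries, and 0 of the 35 lay among the genes analysed for the controls and for adriamycin, which numbered 220 to 292 per library. The values below are therefore levels in etoposide-treated cells and the spread between 2 libraries. A change of these genes with etoposide or with adriamycin was not analysed here, and no test between conditions was made.

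The study profiled RNA of U2OS cells, a human osteosarcoma line whose genotype is labelled WT, in 3 groups of 2 libraries each. The groups were control cells with no treatment, cells given adriamycin (1.5 μg/ml, 4 h) and cells given etoposide (100 μM, 4 h). Adriamycin and etoposide are both topoisomerase II poisons, and adriamycin also intercalates into DNA. The etoposide libraries held 21450766 counts (replicate 1) and 14244235 counts (replicate 2). Nothing in the sources used here says that the 2 libraries came from separate cultures, so their spread may be technical. The labels give the tissue as bone and the cell type as epithelial. Of 5 epithelial markers, KRT8 (469 and 433 TPM, transcripts scaled for gene length and depth) and KRT18 (259 and 245 TPM) were high, EPCAM had 19.3 and 17.2 TPM, CDH1 was below 1 TPM, and KRT19 had 1 and 0 counts. Of 9 mesenchymal and bone markers, COL1A1 (1323 and 1414 TPM) and VIM (568 and 534 TPM) were the highest, followed by FN1 (100 and 128 TPM), CDH2 (50.3 and 55.5 TPM) and ALPL (11.6 and 10.8 TPM). RUNX2 (1.98 and 2.08 TPM) and SPP1 (0.841 and 0.782 TPM) were low, and COL1A2 (5 and 2 counts) and the osteoblast gene BGLAP (8 and 2 counts) were close to 0. The fibroblast markers PDGFRA and PDGFRB had 0.689 and 0.646 TPM and 19.0 and 21.6 TPM, and the immune marker PTPRC had 6 counts in each library.

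Etoposide traps topoisomerase II on cut DNA, and removal of the trapped enzyme leaves a double-strand break. The MRE11-RAD50-NBN complex and the Ku heterodimer bind the ends, ATM, ATR and DNA-PK phosphorylate their substrates at serine or threonine followed by glutamine, and H2AX becomes γ-H2AX in the surrounding chromatin. The break is then joined end to end, or it is resected and copied from the sister chromatid by homologous recombination, while CHEK1 and CHEK2 hold the cell cycle. These steps act largely through existing proteins, so the messenger RNA level of a gene is not a measure of its activity at a break.

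Promoter sequences of the 35 genes were searched for letters that cell-cycle and housekeeping factors are known to bind. RefSeq promoters (GRCh38.p14, 250 bases before to 50 bases after each listed start) matched 31 of the 35 genes, all but NBN, PRKDC, WRN and XRCC5. The E2F-type letters TTTGGCGC or TTTCCCGC or TTTCGCGC or TTTGCCGC, on either strand, occurred in 5 of the 31 genes, and E2F factors drive genes of DNA replication at the start of S phase. The 30 bases around each of the 5 matches are shown because they are the members of the list that carried these letters, with the matched letters in capitals. The sequences run 5′ to 3′ on the strand of the gene.
EXO1, chr1:241848197-241848226, plus strand: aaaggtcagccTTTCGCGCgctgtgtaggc
FANCD2, chr3:10026424-10026453, plus strand: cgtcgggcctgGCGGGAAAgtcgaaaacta
XRCC2, chr7:152676102-152676131, minus strand: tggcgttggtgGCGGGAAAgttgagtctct
FANCA, chr16:89816801-89816830, minus strand: actacaccgcgGCGGCAAAgccaaacgcaa
XRCC6, chr22:41621315-41621344, plus strand: tgtccaagttggtcgcttccctGCGCCAAA
The matches began 5 bases into the transcript for EXO1, 22 for XRCC2 and 43 for XRCC6. In FANCD2 the match began 2 bases before the start, and in FANCA 172 bases before it. The share of 16.1% stood beside 6.44% of 11037 expressed protein-coding genes (10 counts or more in each etoposide library) and 3.99% of all 27305 genes in the promoter table. With 31 genes the share rests on 5, and it fell to 3 genes (XRCC6, XRCC2 and FANCD2) when TTTGGCGC and TTTCCCGC alone were searched, against 4.43% of the detected protein-coding genes. The letters CCAAT, bound by NF-Y, occurred on either strand in 19 of the 31 genes (61.3%, against 42.5%) and the letters GGGCGG, bound by Sp1, in 26 (83.9%, against 76.7%). The TATA-box letters TATAAA occurred in 3 genes (H2AX, DCLRE1C and RAD52, 9.68%, against 8.78%). Matches to different letters may share bases, and a match is a run of letters, not a measured binding site.

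Many of the genes also lay close to the start of another gene. Of the 35, 15 (42.9%) had a neighbour on the opposite strand whose start lay within 1000 bases, against 28.0% of 13715 protein-coding genes with at least 10 counts in both libraries. At RBBP8 the transcripts of the gene and its neighbour overlapped at their starts, so no DNA lay between them. The DNA between starts is shown for 4 pairs, chosen because both genes were protein-coding with at least 10 counts in both libraries, the canonical starts lay at most 300 bases apart, and at least 30 bases lay in no annotated exon. Each line gives the longest stretch outside exons (GRCh38, strand of the break repair gene), with CCAAT and GGGCGG or their complements in capitals.
MRE11 and ANKRD49, chr11:94493886-94493978, minus strand: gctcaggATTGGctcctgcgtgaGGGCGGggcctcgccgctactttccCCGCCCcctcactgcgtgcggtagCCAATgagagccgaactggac
PALB2 and DCTN5, chr16:23641322-23641465, minus strand: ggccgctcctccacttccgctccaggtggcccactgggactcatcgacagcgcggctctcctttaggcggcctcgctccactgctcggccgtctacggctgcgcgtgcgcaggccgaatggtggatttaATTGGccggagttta
XRCC4 and TMEM167A, chr5:83077454-83077497, plus strand: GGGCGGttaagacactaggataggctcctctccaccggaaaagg
XRCC6 and DESI1, chr22:41621044-41621162, plus strand: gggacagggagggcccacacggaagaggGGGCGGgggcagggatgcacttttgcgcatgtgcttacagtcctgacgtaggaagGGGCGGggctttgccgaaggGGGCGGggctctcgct
None of the 4 stretches held TATAAA or the E2F-type letters. The stretch at MRE11 held 2 CCAAT and 2 GGGCGG matches, the stretch at PALB2 held 1 CCAAT, the stretch at XRCC4 held 1 GGGCGG, and the stretch at XRCC6 held 3 GGGCGG.

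In each of the 4 pairs the levels of the 2 genes did not overlap, by a narrow margin at MRE11 and PALB2 and by a wide one at XRCC4 and XRCC6. These are levels over all annotated exons of a gene. Other lengths were not compared for the neighbours, so the narrow margins may depend on this length. MRE11 had 18.5 and 19.7 TPM beside 21.4 and 20.4 TPM for ANKRD49. PALB2 lay below DCTN5, at 16.9 and 17.5 TPM against 19.8 and 23.5 TPM. XRCC6 stood at 633 and 606 TPM and DESI1 at 49.2 and 47.5 TPM. XRCC6 was thus far above its neighbour, while XRCC4 lay below its own, at 11.5 and 9.95 TPM against 47.8 and 47.4 TPM for TMEM167A. Of the 15 genes with such a neighbour, 11 had one with at least 10 counts in both libraries, and 9 of these neighbours were protein-coding. ATM faced NPAT, a histone transcription coactivator, with starts 429 bases apart (655 and 470 counts). PRKDC faced the replication helicase gene MCM4, with starts 805 bases apart (10323 and 6894 counts). BRCA1 faced the non-coding gene NBR2 (151 and 107 counts, starts 187 bases apart). By contrast, ZAR1L, which faces BRCA2 at 145 bases, had 3 and 1 counts.

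Each etoposide library gave all 35 genes 10 counts or more, and 34 of them 50 or more. Together they took 0.408% and 0.420% of all counts. Levels of different genes were compared per length, as TPM over all annotated exons of a gene. In bulk RNA, fewer cells that express a gene and less RNA per cell cannot be told apart. The median over the 35 was 19.1 TPM, with quartiles at 11.1 and 47.1 TPM, beside a median of 12.3 TPM over 17148 detected genes (10 counts or more in each library and a match in GENCODE, which 17148 of 17207 such genes had) and of 16.5 TPM over the 13715 protein-coding ones. Of the 35, 25 lay above the 50th percentile of detected genes, 10 lay in the upper quartile (over 37.2 TPM) and 3 lay above the 90th percentile. Of the 25, BLM, BRCA1, LIG4 and CHEK2 lay below the median of the protein-coding genes. The range was wide, from 0.257 TPM for NHEJ1 to 1005 TPM for H2AX, and the 5 highest genes held 77.0% of the summed TPM of the list.

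**Figure D1:**
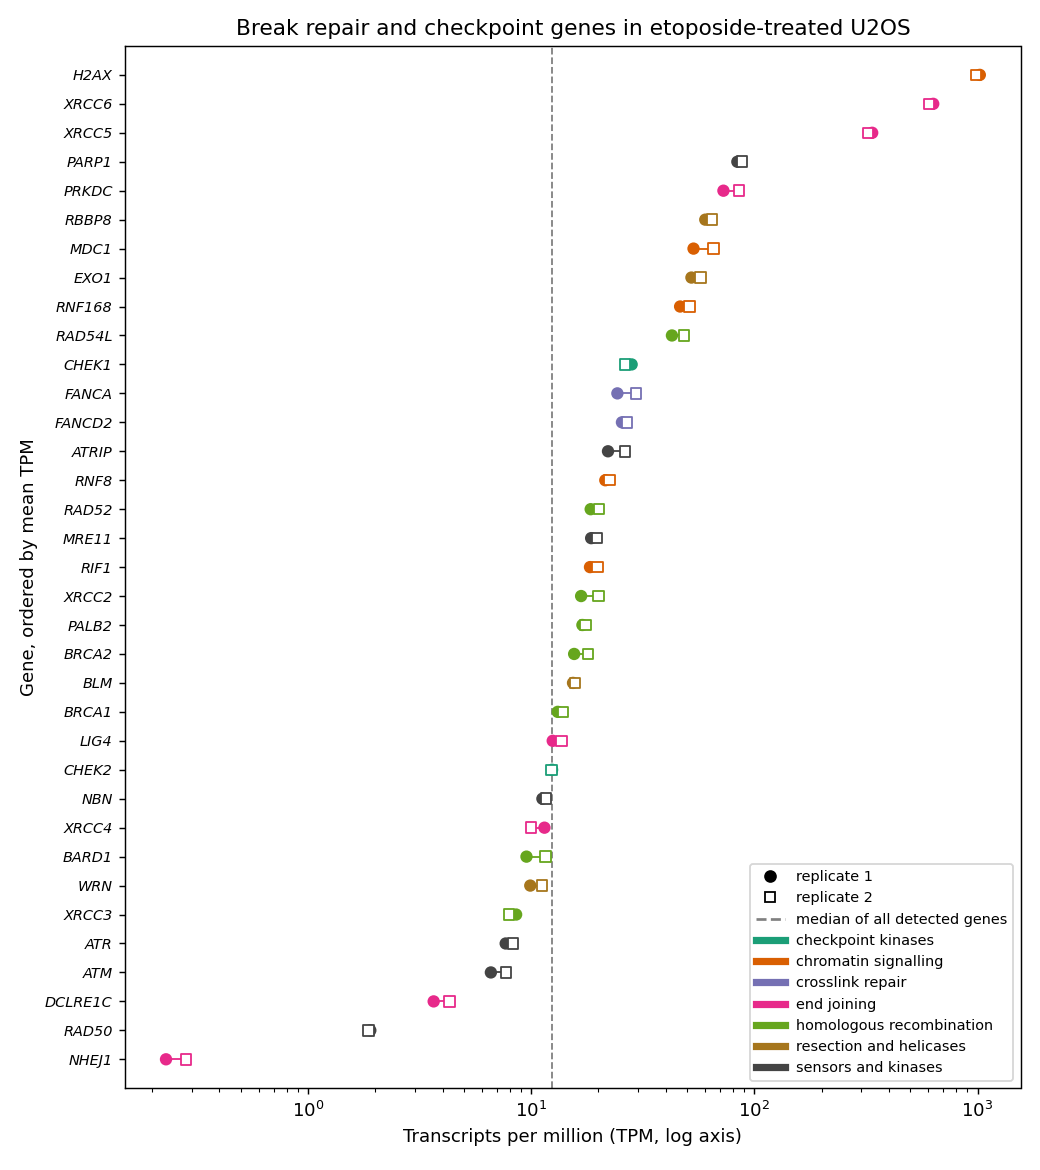
Level of each of the 35 genes in TPM (log axis) in etoposide replicate 1 (filled circles) and replicate 2 (open squares), ordered by the mean and coloured by role, with the median of 12.3 TPM over all detected genes as a dashed line. H2AX, XRCC6 and XRCC5 stand above 300 TPM in both libraries, 25 genes lie above the 50th percentile of detected genes, and RAD50 and NHEJ1 are the lowest at 1.88 and 0.257 TPM on average.

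Chromatin signalling genes mark and read the break. H2AX (ENSG00000188486, chr11:119093874-119095465, minus strand) encodes the histone variant that becomes γ-H2AX, and it was the highest gene of the list. It had 10160 and 6368 counts, or 1024 and 986 TPM (1005 ± 26.5, SD, n = 2), at the 99.5th percentile of detected genes. The libraries were made from poly-A RNA, so any H2AX RNA without a poly-A tail was not measured. MDC1, the adaptor that binds γ-H2AX, stood far lower at 53.3 and 65.7 TPM (59.5 ± 8.73). The ubiquitin ligase RNF168 had 46.4 and 51.1 TPM, and RNF8, the ligase that acts before it, had 21.5 and 22.4 TPM. RIF1, which protects ends from resection, was the lowest of the 5 at 18.3 and 19.8 TPM. The libraries did not overlap between any of the steps from H2AX to MDC1, RNF168, RNF8 and RIF1. Through H2AX, these 5 genes carried 41.9% of the summed TPM of the list.

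The end-joining genes included both the second highest and the lowest gene of the list. XRCC6 (Ku70, ENSG00000196419, chr22:41621163-41664048) and XRCC5 (Ku80, ENSG00000079246, chr2:216107464-216206303), both on the plus strand, encode the ring that slides onto a DNA end. XRCC6 had 633 and 606 TPM (620 ± 18.8) and XRCC5 had 337 and 323 TPM (330 ± 10.1), so both lay above the 97th percentile. PRKDC, the catalytic subunit of DNA-PK, had more reads than any other gene of the list (13161 and 10060 counts), but per length it stood at 72.6 and 85.3 TPM (79.0 ± 8.98). The ligation step was lower: LIG4, the ligase, had 12.5 and 13.7 TPM, and its scaffold XRCC4 had 11.5 and 9.95 TPM. DCLRE1C (Artemis), the nuclease that opens hairpins and trims ends, had 3.65 and 4.30 TPM. NHEJ1 (XLF, ENSG00000187736, chr2:219069355-219160869, minus strand), which bridges the ends with XRCC4, was the lowest gene of the list, with 15 and 12 counts or 0.230 and 0.283 TPM. The exact Poisson intervals of these counts at the 95% level were 8.40 to 24.7 and 6.20 to 21.0, which cover counting error only.

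The sensors and apical kinases were led by PARP1, which binds DNA breaks and adds poly-ADP-ribose, at 83.9 and 88.1 TPM (86.0 ± 3.01). MRE11, the nuclease of the MRE11-RAD50-NBN complex, had 18.5 and 19.7 TPM, and NBN, which recruits ATM, had 11.2 and 11.6 TPM. RAD50 (ENSG00000113522, chr5:132556019-132646349, plus strand), the ATPase that tethers the ends, had 125 and 80 counts, or 1.90 and 1.87 TPM, at the 14.4th percentile of detected genes. ATM (ENSG00000149311, chr11:108223044-108369102, plus strand), the kinase of double-strand breaks, had 6.59 and 7.69 TPM. ATR (ENSG00000175054, chr3:142449007-142578733, minus strand), the kinase of resected and stalled DNA, had 7.68 and 8.27 TPM. ATM was the lower of the 2 kinases within each library, although their ranges over the libraries overlapped. ATRIP, which brings ATR to RPA-coated DNA, had 22.1 and 26.3 TPM, above ATR in both libraries.

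The resection genes RBBP8 and EXO1 lay in the upper part of the list. RBBP8 (CtIP), which starts resection with MRE11, had 60.2 and 64.4 TPM. EXO1, the exonuclease of long-range resection, had 52.2 and 57.3 TPM. The RecQ helicases were lower, with 15.4 and 15.7 TPM for BLM and 9.89 and 11.2 TPM for WRN, and their libraries did not overlap.

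Among the 8 homologous recombination genes, RAD54L, a DNA-dependent ATPase of this pathway, was the highest at 42.7 and 48.3 TPM. The other 7 lay between 8.25 and 19.3 TPM on average. RAD52, a DNA annealing protein, had 18.5 and 20.2 TPM, and XRCC2 had 16.7 and 20.0 TPM. PALB2 (16.9 and 17.5 TPM) and BRCA2 (15.6 and 17.9 TPM; ENSG00000139618, chr13:32315086-32400268, plus strand), which bind each other, overlapped in level. BRCA1 (ENSG00000012048, chr17:43044295-43170245, minus strand), a ubiquitin ligase that promotes resection, had 13.1 and 13.9 TPM. Its partner BARD1 had 9.51 and 11.6 TPM. XRCC3 was the lowest at 8.55 and 7.95 TPM.

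Of the checkpoint kinases, CHEK1, the main target of ATR, had 28.2 and 26.3 TPM, and CHEK2, the main target of ATM, had 12.4 and 12.3 TPM. The crosslink repair genes overlapped each other, with 24.3 and 29.5 TPM for FANCA, a subunit of the Fanconi core ligase, and 25.5 and 26.9 TPM for FANCD2, the protein which that ligase modifies.

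Read as an order, the levels over all exons formed steps rather than 35 distinct ranks. Of the 34 pairs of neighbours in the order, 14 had libraries that did not overlap and 20 overlapped. H2AX, XRCC6 and XRCC5 each stood apart from the next gene. PARP1 and PRKDC overlapped, MDC1 overlapped both RBBP8 and EXO1, which did not overlap each other, and the 7 genes from RAD52 to BLM formed a run from 19.3 to 15.5 TPM in which each gene overlapped the next. At the lower end, ATM, DCLRE1C, RAD50 and NHEJ1 followed each other with no overlap. These steps depend on the length used. With the canonical transcript PARP1 stood at 240 TPM and PRKDC at 103 TPM, and MRE11 moved from rank 17 to rank 28.

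The level of several genes depended on which length was divided by. TPM was therefore recomputed with the canonical transcript of GENCODE, with the longest transcript, and with only those exon bases that no other counted gene covers. In the last case the whole count of a gene was still the number divided. That value applies only if reads in shared bases were left out of the count. With the canonical transcript, 6 genes rose by more than 1.5 times and 4 fell by as much. PARP1 went to 240 TPM (2.79 times), NBN to 28.9 TPM (2.53 times), ATR to 16.0 TPM (2.01 times) and ATM to 13.1 TPM (1.83 times), and XRCC3 and DCLRE1C rose as well. H2AX went down to 605 TPM (0.602 times), and RNF168, WRN and MDC1 went down by similar factors. H2AX (1592 bases) and RNF168 (5347 bases) had the same length over all exons and in the canonical transcript. Their falls came only from rescaling each library to a sum of 1000000. The canonical transcripts of WRN and MDC1 were shorter than all their exons, so their falls came from the rescaling too. The order kept a Spearman coefficient of 0.880 with the main order over the 35 genes, 0.917 with the longest transcript and 0.942 with unshared bases. H2AX, XRCC6 and XRCC5 stayed the 3 highest and NHEJ1 the lowest under all 4 lengths. RAD50 was at rank 34 under 3 of them and at rank 32 with unshared bases.

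**Figure D2:**
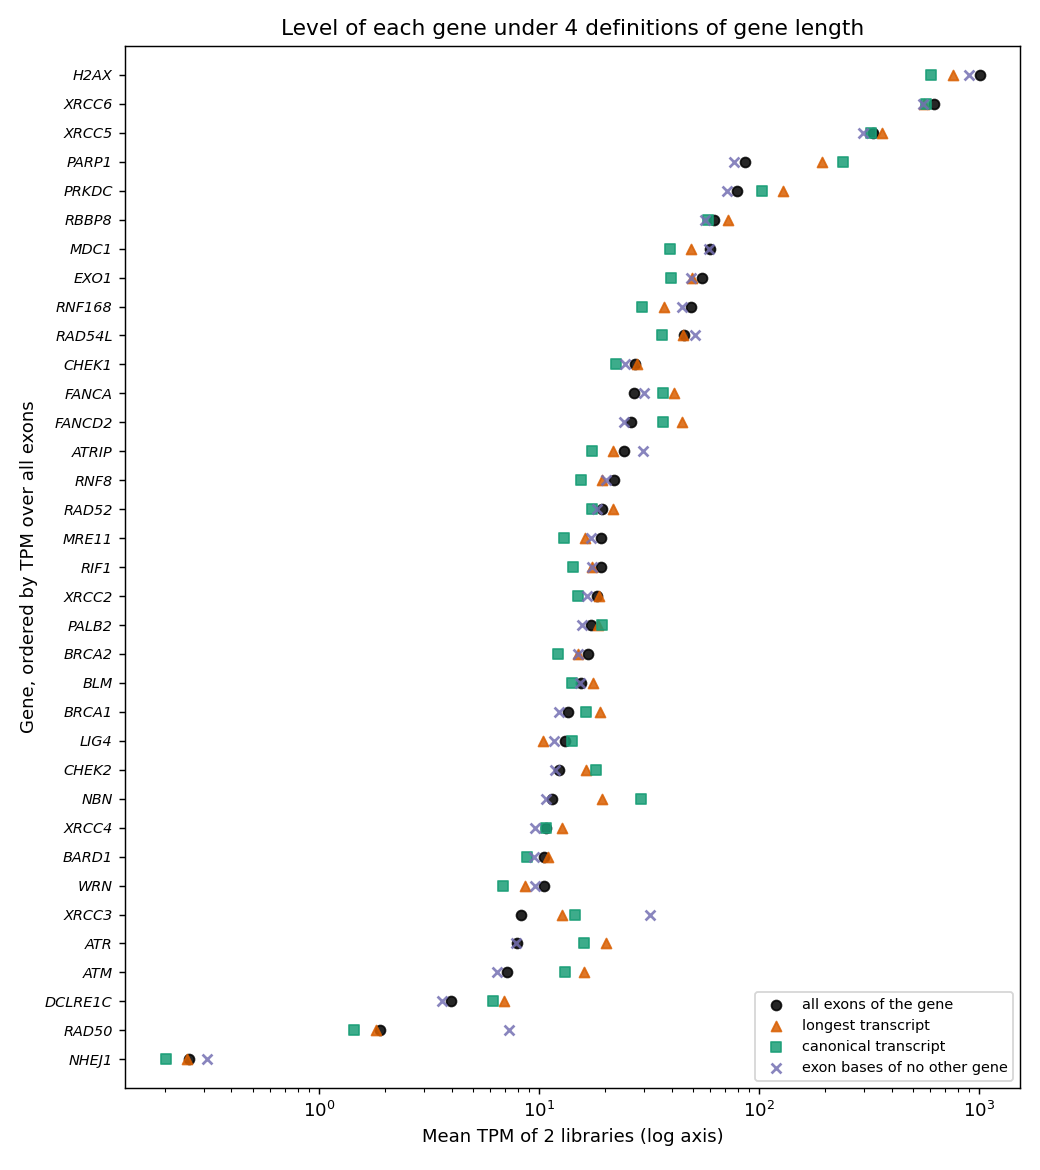
Mean TPM of the 2 etoposide libraries (log axis) for each gene under 4 definitions of gene length, ordered as in the plot of levels. PARP1, NBN, ATR and ATM move to the right with the canonical transcript. XRCC3 and RAD50 move to 31.8 and 7.31 TPM when the whole count is divided by exon bases of no other gene alone.

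The 2 lowest genes shared nearly all of their coding sequence with another counted gene. Of the canonical coding bases of RAD50, 96.7% lay in exons of the readthrough gene ENSG00000283782 or of another gene. This readthrough gene lies on the same strand, shared 76.9% of the RAD50 exon bases, and had 0 counts in both libraries. Of the coding bases of NHEJ1, 100% were shared, and the readthrough gene ENSG00000280537 on the same strand had 29 and 13 counts. Counting programs can leave out a read that falls in 2 genes, and whether that was done here is not given in the sources used here. Over all protein-coding genes, 747 of 1122 (66.6%) with more than 90% of their coding bases shared had fewer than 10 counts in a library. These genes may include readthrough genes themselves. With none shared, 4522 of 14667 (30.8%) had so few counts. In between it was 20.5% of 3555 genes with up to 50% shared and 32.5% of 548 with 50 to 90% shared. The share thus did not rise step by step with sharing. With unshared bases alone, RAD50 stood at 7.31 TPM (3.88 times its value over all exons) and NHEJ1 at 0.311 TPM. The part of this sharing in the low values was not tested, and the levels of RAD50 and NHEJ1 are uncertain for that reason. XRCC3 (ENSG00000126215, chr14:103697609-103715504, minus strand) shared 76.7% of its exon bases and 54.0% of its coding bases, mainly with KLC1 on the opposite strand (565 and 398 counts). It stood at 31.8 TPM with unshared bases, a value that applies only if reads in shared bases were left out. TREX1, which lies inside the exons of ATRIP, had 0 counts in both libraries. No shared coding base was found for 22 of the 35 genes.

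Ratios between partners were then taken within each library, for 15 pairs that work together or in parallel. The Ku subunits gave the tightest ratio: XRCC5 over XRCC6 was −0.91 on the log2 TPM scale in both libraries, a level 1.88-fold lower. PRKDC was 7.87-fold below XRCC6, with log2 ratios of −3.12 and −2.83, and 4.36-fold below it with the longest transcript. RNF8 was 2.22-fold below RNF168 (−1.11 and −1.19). These pairs kept their direction under each length used. ATR over ATRIP was −1.52 and −1.67 but came to −0.10 with the canonical transcript, so that the 3.02-fold difference depends on the length used. CHEK1 over CHEK2 was 1.18 and 1.10, and 0.30 with the canonical transcript. ATM over ATR was −0.22 and −0.10, and lay between −0.32 and −0.30 with the other 3 lengths. BRCA2 over PALB2 was −0.12 and 0.04, the latter with no common direction in the 2 libraries, and with the canonical transcript the mean was −0.66, with BRCA2 1.58-fold below PALB2. BRCA1 over BARD1 was 0.47 and 0.27, and BLM over WRN was 0.64 and 0.49. Both kept their direction but grew with the canonical transcript, to 0.90 and 1.04.

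Within the MRE11-RAD50-NBN complex, each ratio moved by more than 1.5 times with at least 1 of the other lengths. MRE11 over RAD50 was 3.29 and 3.40, a 10.1-fold difference over all exons, and 1.23 with unshared bases (2.34-fold). NBN over RAD50 was 2.56 and 2.64, or 6.06-fold, and it went up to 4.32 with the canonical transcript and 3.42 with the longest, and down to 0.55 with unshared bases. MRE11 over NBN was 0.73 and 0.76, but −1.16 with the canonical transcript, where NBN stood above MRE11. XRCC3 over XRCC2 likewise turned from −0.97 and −1.33 to 0.95 with unshared bases.

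**Figure D3:**
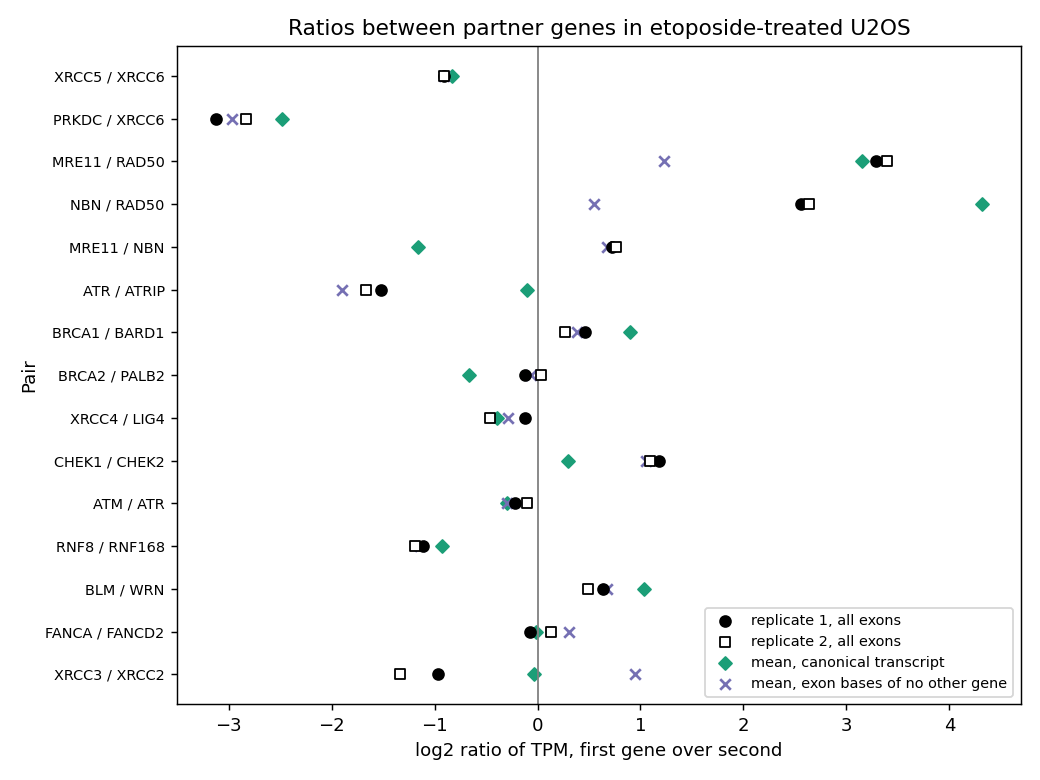
Log2 ratio of TPM between the first and the second gene of 15 pairs, in replicate 1 (filled circles) and replicate 2 (open squares) over all exons, with the mean for the canonical transcript (diamonds) and for exon bases of no other gene (crosses). XRCC5 / XRCC6 gives −0.91 in both libraries, while MRE11 / NBN and XRCC3 / XRCC2 change sign with the length used.

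The 2 libraries were compared gene by gene after TMM normalization, which scales for depth, to give the error behind these levels. Of the 35 genes, 0 were over 1.5-fold apart, whereas 1583 of 17148 detected genes were, which is 9.23%. Most of those had fewer than 100 counts in a library. Among the 11107 detected genes with at least 100 counts in both libraries, 65 (0.585%) were over 1.5-fold apart, and 33 of the 35 genes had such counts. The median gene of the list was 1.07-fold apart. The largest difference was that of XRCC4 (191 and 108 counts), 1.21-fold higher in replicate 1, with normalized counts of 158 and 130. The exact 95% Poisson intervals of its raw counts were 165 to 220 and 88.6 to 130. These intervals are not scaled for the unlike depth of the libraries, so they cannot be compared with each other directly. The SD of the log2 ratio was 0.13 over the list, 0.34 over all detected genes and 0.18 over those with at least 100 counts.

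These differences went with transcript length. The 14 genes that were higher in replicate 1 included H2AX, XRCC6 and XRCC4, with short transcripts, but also RAD50, with a long one. The 21 that were higher in replicate 2 included PRKDC, ATM, BRCA2 and MDC1, with long transcripts. With scaling by library size alone the split was 8 to 27 in place of 14 to 21, and with DESeq2 size factors it was 14 to 21. All 5 genes with canonical transcripts under 3000 bases were higher in replicate 1 (median log2 ratio 0.14), and 10 of 11 with 6000 bases or more were higher in replicate 2 (median −0.10). The 19 genes in between were divided, with 11 higher in replicate 2 (median −0.05). Over all detected protein-coding genes the same medians were 0.11 for short, −0.005 for intermediate and −0.10 for long transcripts (5907, 5165 and 2643 genes). Spearman's coefficient between transcript length and the log2 ratio was −0.52 over the 35 genes, −0.50 over the 10504 protein-coding genes with at least 100 counts in both libraries and −0.37 over all 13715 detected ones, as a description over genes of the same 2 libraries. The cause was not tested.

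**Figure D4:**
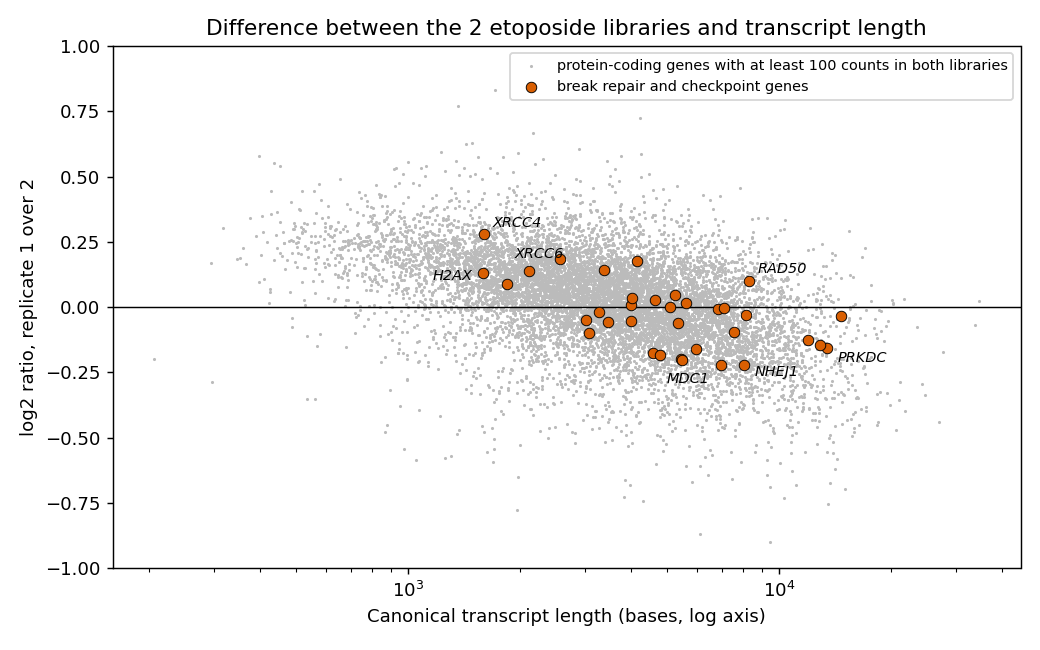
Log2 ratio of TMM-normalized counts in replicate 1 over replicate 2 against the canonical transcript length (bases, log axis), for protein-coding genes with at least 100 counts in both libraries (grey) and for the 35 genes (orange). Ratios of the 35 genes stay between −0.22 for MDC1 and 0.28 for XRCC4, and both sets fall from above 0 for short transcripts to below 0 for long ones.

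The proteins were examined for the dipeptides that the apical kinases phosphorylate, serine or threonine followed by glutamine (SQ or TQ), a property that the choice of genes did not use directly. Proteins were translated from the canonical coding sequences of GENCODE. A cluster, defined as at least 3 such dipeptides within 100 residues, was found in 22 of the 35 proteins (62.9%) and in 4426 of 19738 proteins overall (22.4%). The listed proteins were also longer, with a median of 791 residues against 427, and longer proteins hold more dipeptides. Within length classes, clusters were found in 4 of 8 listed proteins under 500 residues (10.2% overall), in 7 of 13 from 500 to 1000 residues (31.5% overall) and in 11 of 14 with 1000 residues or more (59.3% overall). Per 100 residues the median was 0.825 dipeptides in the list and 0.520 overall. Many of these genes are known for being phosphorylated by ATM or ATR, so the share is a description of the list.

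The highest totals belonged to the adaptor MDC1, with 33 dipeptides in 2089 residues, and to the kinases ATM (30) and PRKDC (27). BRCA1 had 20, and ATR, RIF1 and FANCD2 had 19 each. CHEK2, which ATM activates at such sites, held the densest cluster of the list, with 7 in 100 residues. H2AX had only 2 in 143 residues and no cluster, and the last of them began 4 residues from the C-terminal end, where γ-H2AX is formed. XRCC4 had 1 and XRCC6 had 2, the lowest totals beside H2AX.

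**Figure D5:**
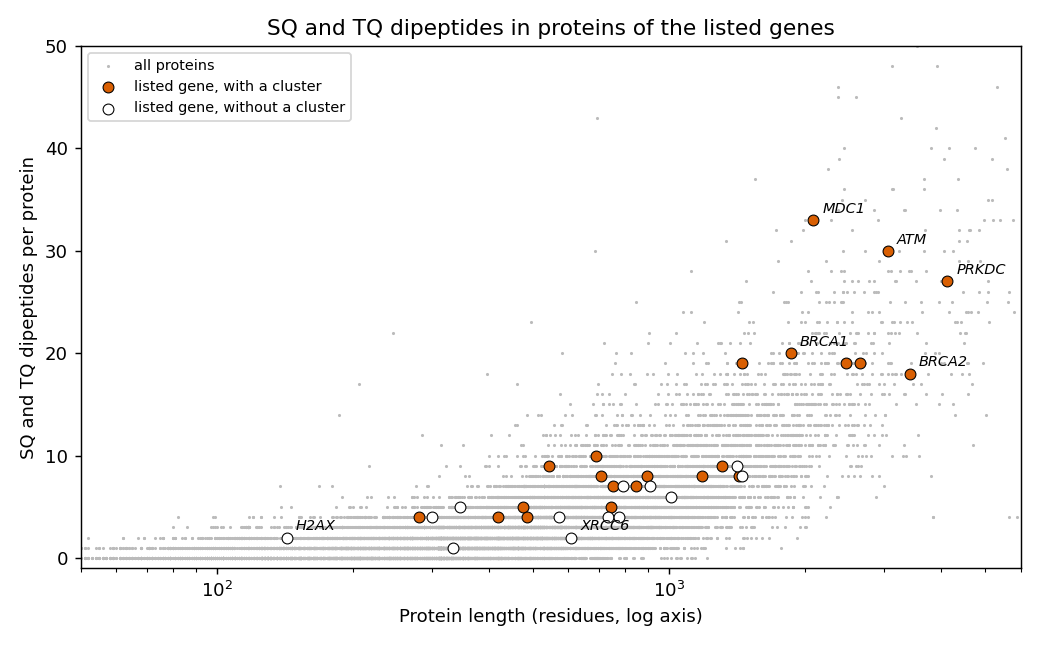
Number of SQ and TQ dipeptides against protein length (residues, log axis) for all proteins (grey) and for the 35 listed proteins with a cluster (orange) or without one (white). MDC1, ATM and PRKDC hold 33, 30 and 27 dipeptides, while XRCC4, XRCC6 and H2AX hold 1 or 2.

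Further genes of the same pathways were read as a frame for the list. Of 62 such genes in 9 lists, 61 had at least 10 counts in both libraries, and 0 of the 61 were over 1.5-fold apart. The exception was DNTT, the template-independent polymerase of lymphocyte precursors, with 0 and 1 counts. Their median was 27.2 TPM. Replication protein A, which coats resected DNA, was uniformly high, from 77.7 TPM for RPA3 to 107 TPM for RPA2. The further end-joining genes ranged up to PAXX, a paralogue of XRCC4, at 68.5 TPM. The polymerase theta and shieldin list ran from SHLD1 at 5.20 TPM to MAD2L2 at 56.5 TPM, and the BRCA1-A list from ABRAXAS1 at 5.33 TPM to BRCC3 at 49.2 TPM. Among the clamp and ATR activator genes TIMELESS was highest at 105 TPM and ETAA1 lowest at 11.7 TPM. The checkpoint effectors ran from the phosphatase CDC25C at 10.5 TPM to PKMYT1, a kinase that inhibits CDK1, at 153 TPM. In the list of crossover dissolution and resolution, RMI1 was highest at 45.0 TPM and the nuclease GEN1 lowest at 16.7 TPM. The Fanconi genes ran from the ligase FANCL at 2.60 TPM to its conjugating enzyme UBE2T at 95.2 TPM, on both sides of FANCA and FANCD2. FANCL had 565 and 433 counts over 37977 exon bases, while its canonical transcript has 1658 bases. Its place as the lowest therefore depends on the length used.

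Pseudogene copies took few reads. Of 20 counted pseudogene copies of the 35 genes, 1 had at least 10 counts in a library, BRCA1P1 with 17 and 6 counts beside 1159 and 798 counts for BRCA1.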

How the data were processed

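Raw counts per Ensembl gene were deposited by the authors, who aligned poly-A RNA-Seq reads to GRCh38 with HISAT2 2.1.0 and counted them with featureCounts (Subread 2.0.0), per the submitters' processing notes. Strand and overlap options are not given in the sources used here. Genes were matched to GENCODE release 44 (60357 of 67140 identifiers). TPM was computed as the count divided by the length of all exons, scaled to a sum of 1000000 per library, and libraries were compared after TMM normalization (edgeR 4.0.16, R 4.3.3; tested on simulated data). Genes matched to GENCODE with at least 10 counts in both libraries were called detected. Tables were made with Python 3.11.15 and pandas 2.3.3. All 35 genes are named, with the highest and lowest gene of each further list, head-to-head neighbours and pseudogenes with at least 10 counts, and the remaining names were chosen after their values were seen. The genes and lists were chosen with earlier results of these data known. The rest of the control and adriamycin lists was not analysed here. The result of 1 further list is not reported here.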

Additional observations from a re-analysis of the deposited data

How the results depend on the processing

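CPM, which ignores gene length, in place of TPM gave a median of 53.3 over the 35 genes and put 16 in the upper quartile. TPM over protein-coding genes alone gave a median of 21.0, the canonical transcript 17.3 and unshared exon bases 17.4, the last pair added after seeing the data. Counting every gene with a read in the comparison put 24 in the upper quartile. Clusters of 3 SQ or TQ dipeptides in 50 residues were found in 14 proteins, and 2 of the E2F-type letter runs alone in 3 promoters. The log2 ratio of MRE11 over NBN turned to −0.26 with the longest and −1.16 with the canonical transcript, that of XRCC4 over LIG4 to 0.29 with the longest, and that of XRCC3 over XRCC2 to 0.95 with unshared bases. Levels moved by more than 1 SD of the libraries for 33 of the 35 genes with the canonical transcript, 29 with the longest and 26 with unshared bases. These counts include moves that come from rescaling alone. H2AX, XRCC6 and XRCC5 share no exon base, yet each went to 0.898 times its level with unshared bases. In these ratios only the length divided by was changed, while the levels were also rescaled to a sum of 1000000 per library. Without each library in turn the median lay between 18.3 and 19.8 TPM and 10 genes stayed in the upper quartile. Scaling by DESeq2 size factors, upper quartiles or library size left 0 genes over 1.5-fold apart. No paired analysis was possible because values of these genes were analysed here in the etoposide group alone and no result comes from a test.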
